A study of Mus musculus with 3 samples.

Results

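Among the epidermal and hair follicle cells of postnatal day (P) 18 mouse dorsal skin, 166 of 5760 cells carried a high level of Cers4 together with a low level of Krt10. Cers4 encodes a ceramide synthase, an enzyme that joins a sphingoid base to a fatty acid, and Krt10 encodes a keratin of the differentiated layers of the epidermis. Barcodes with 200 or more detected genes and with no more than 20% of their counts from mitochondrial genes were kept as cells. A kept cell was a member when Cers4 reached 1000 CPM (1e6 times the gene's count over the total of that cell) and Krt10 stayed below 10000 CPM. Both genes chose the members, so their levels are a description and were not tested.

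The skin came from 2 control libraries of Vdr flox/flox mice and 1 library of Vdr flox/flox; Krt14cre mice (Vdr cKO), in which the Keratin-14 promoter drives Cre in keratinocytes. The floxed Vdr alleles were carried by every mouse, and 3 male mice were pooled for each library. Members numbered 33 of 1480 kept cells in control 1, 42 of 1658 in control 2 and 91 of 2622 in the library labelled Vdr cKO. These are 2.23%, 2.53% and 3.47% of the kept cells, with 95% Clopper-Pearson intervals of 1.54 to 3.12, 1.83 to 3.41 and 2.80 to 4.24, which cover counting error only. With a single cKO library no genotype difference could be tested. The Cre removes exon 3 of Vdr, and the deposited counts are per gene and not per exon, so the level of Vdr checks nothing about the label. Vdr was found in 18 of the 91 members of that library and at 99.5 normalised CPM, against no member of control 1 and 3 members of control 2, where its level was 7.59. The other kept cells stood at 46.7, 40.0 and 75.0.

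The hair follicle is a set of nested epithelial layers around a hair shaft, with a stem cell region called the bulge. A sebaceous gland opens through a duct into its upper part. Gland cells, the sebocytes, arise from basal cells that carry Krt14, fill with lipid droplets and burst to release sebum, a mixture rich in wax esters, triglycerides and cholesterol esters. Ceramides made by ceramide synthases are lipids of the epidermal barrier and are also made in the gland. Fa2h, the fatty acid 2-hydroxylase, adds a hydroxyl group to fatty acids that enter ceramides and other lipids.

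Members of the control libraries were deep cells. Their median total was 16965 counts in control 1 and 12939 in control 2, against 4147 and 4418 in the other kept cells. In the library labelled Vdr cKO the medians were close, at 3917 in the members and 4059 in the others. Median mitochondrial shares of members were 2.59%, 1.64% and 1.85%, against 2.29%, 1.64% and 1.75% in the others. No member barcode was shared between libraries or lay 1 base from a deeper kept barcode of its library. Shallower neighbours of members were not counted, and no doublet caller was used. The part of depth in the results below was not tested beyond comparisons at 500, 1000 and 2000 counts per cell and fits on cells with 2000 or more counts, given further on.

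The Cers4 gene occupies chromosome 8 from 4493026 to 4531680 (GRCm38, plus strand). Per cell, its level in members ran from 1176 through a median of 4326 to 28241 CPM in control 1. The same values were 1146, 3672 and 17122 in control 2, and 1016, 4325 and 19698 in the library labelled Vdr cKO. Counts of Cers4 behind these levels had a median of 88, 50 and 20 for each member, and 1, 2 and 14 members rested on fewer than 5 counts. The members held 76.0%, 86.8% and 55.9% of all Cers4 counts of the kept cells. Just inside the limit the lowest members of the libraries stood at 1176, 1146 and 1016 CPM, and the nearest cells with little Krt10 just outside it at 896, 871 and 979 CPM. Another 85, 36 and 74 cells passed the Cers4 limit but not the Krt10 limit, so that cells high in Cers4 also occurred on the Krt10-high side.

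**Figure D1:**
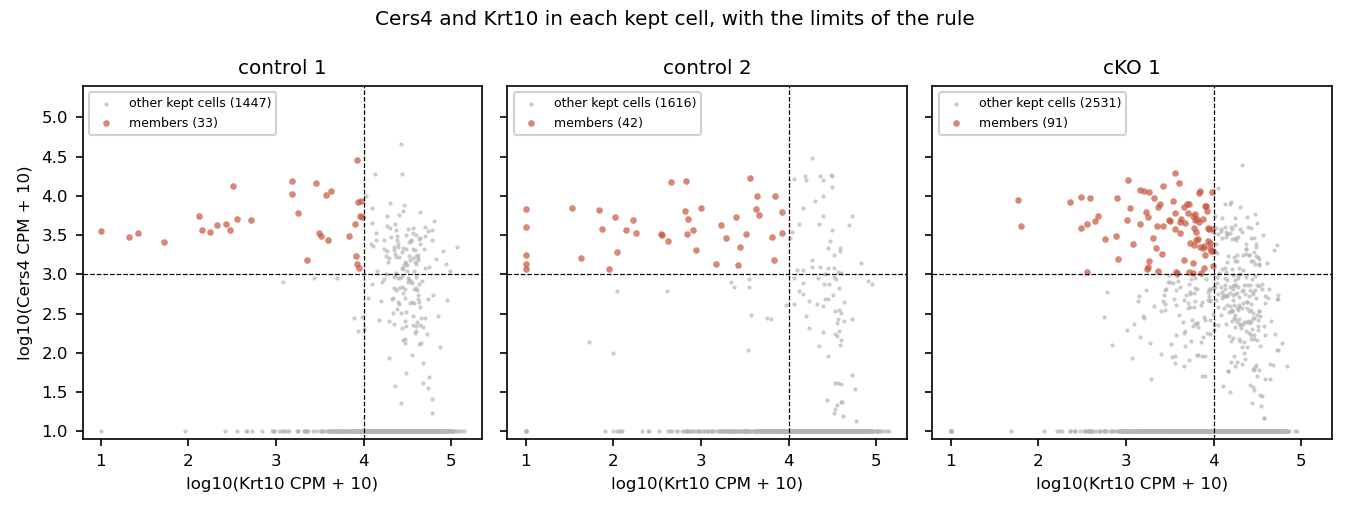
Each point is 1 kept cell of the library named above the panel, with Krt10 on the x axis and Cers4 on the y axis, both as log10 of CPM plus 10; dashed lines mark the limits of 10000 and 1000 CPM. The 33, 42 and 91 members (red) fill the upper left corner, and cells with no Cers4 count lie on the line at 1.0.

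For the comparisons, counts were summed over the members and over the other kept cells of each library, and a normalised CPM is the same measure for such a sum after TMM scaling of its total. edgeR's quasi-likelihood test with library as a block gave log2 folds with standard errors (SE) and p-values adjusted by the Benjamini-Hochberg method over all genes tested. Of 10846 genes, 253 (2.33%) were higher and 388 (3.58%) lower in members at an adjusted p below 0.05. Against the 1263 other cells that also had Krt10 below 10000 CPM, 155 of 7414 genes (2.09%) were higher and 191 (2.58%) lower. Of the genes called in the first comparison, 147 of the higher and 135 of the lower were called in the same direction in the second, and 0 in the opposite one. These make up 58.1% and 34.8% of the first lists and 94.8% and 70.7% of the second ones; both comparisons use the same members. Over all genes the fitted log2 folds had a median of −1.21 in the first comparison and −0.37 in the second, and the folds below are to be read against those medians.

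Genes of the sebaceous gland set the members apart in every library. From a list of 17 such genes 16 were tested, and 15 of them were higher in members and 1 was lower, where 2.33% and 3.58% of all genes were called. The median log2 fold of the list was 4.93, and 3.99 against the cells with little Krt10, where 13 of 16 were higher (background 2.09%) and 0 lower. Summed over the list, members stood at 49087, 43916 and 19213 normalised CPM in the first and second control and the library labelled Vdr cKO, against 2401, 1853 and 1902 in the other cells. The ratio was 20.4, 23.7 and 10.1. Scd1 was the most abundant gene of the list, and no gene of the list was at 0 in the members of all libraries. Without the library labelled Vdr cKO the calls were 15 higher and 1 lower, and with 1 control library left out 14 were higher.

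Scd1, a stearoyl-CoA desaturase that makes monounsaturated fatty acids, was at 20138 normalised CPM in members of control 1 and at 586 in the other cells there. In control 2 it was at 13247 against 336, and in the library labelled Vdr cKO at 7344 against 493. Every member sum lay above every sum of other cells, as for 7.3% of the genes tested, and the fitted log2 fold was 4.77 with an SE of 0.42 (edgeR, adjusted p = 7.79e-27). With each gene counted once per cell the log2 fold of Scd1 was 0.42 and did not pass (adjusted p = 0.44). Scd3, a related desaturase of the gland, was at 9191, 12012 and 773 in members against 145, 225 and 111 in the others, with the lowest member level in the library labelled Vdr cKO. Scd1 and Scd3 are similar in sequence, and how reads shared between them were counted is not given in the sources used here.

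Pparg encodes a nuclear receptor that directs lipid storage and sebocyte differentiation. Its level was 180, 399 and 144 normalised CPM in members and 5.74, 2.39 and 4.80 in the others (log2 fold 5.70, SE 0.89, edgeR, adjusted p = 1.58e-08). Soat1, which esterifies cholesterol, stood at 4234, 3418 and 1788 against 92.5, 34.9 and 76.5, a log2 fold of 5.56. Mgst1, a microsomal glutathione transferase, stood at 4008, 3189 and 3604 against 174, 50.1 and 238. Every member sum of these 3 genes lay above the sums of the other cells, as for 7.3% of the genes tested.

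Other genes of the list make or coat the sebum lipids. Awat1 and Awat2, acyltransferases that make wax esters, had log2 folds of 5.58 and 5.03. Far2, which makes the fatty alcohols of waxes, had 4.78, and Elovl3, a fatty acid elongase, 4.94. The lipid droplet proteins Plin2 and Cidea had 4.26 and 5.90, and the melanocortin receptor gene Mc5r had 5.36. Dgat2, a triglyceride-forming acyltransferase, was the member of the list that went the other way. It stood at 125, 48.9 and 286 normalised CPM in members against 798, 816 and 503 in the others (log2 fold −2.52, edgeR, adjusted p = 0.000152; 0.30 without control 2 and 0.071 under DESeq2), and its log2 fold of −2.53 against the cells with little Krt10 did not pass (adjusted p = 0.105).

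**Figure D2:**
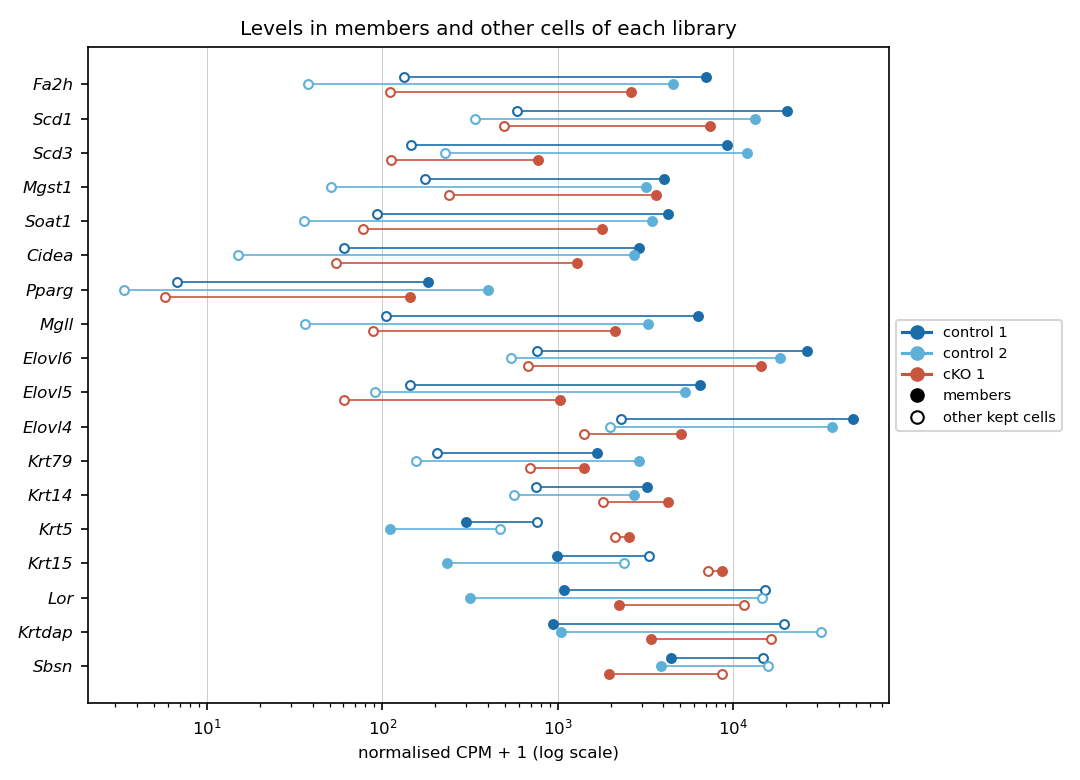
Normalised CPM plus 1 on a log axis for 18 genes, with filled circles for the members and open circles for the other kept cells of the same library, joined by a line and coloured by library. For Fa2h and Scd1 the member sums, from 2623 and 7344 upwards, lie above the sums of the other cells, which reach 133 and 586, while Lor and Krtdap show the opposite order.

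Fa2h was the gene of ceramide metabolism with the highest fold among those tested. The gene occupies chromosome 8 from 111345135 to 111393824 (GRCm38, minus strand). Members were at 6965, 4554 and 2623 normalised CPM and the others at 133, 36.8 and 109 (log2 fold 5.75, SE 0.48, edgeR, adjusted p = 1.54e-29). Against the cells with little Krt10 the log2 fold was 4.99 (edgeR, adjusted p = 1.41e-06). A count of Fa2h was found in 28 of 33 members of control 1, 36 of 42 of control 2 and 47 of 91 of the library labelled Vdr cKO. Members of the last library thus divided into 47 cells with and 44 cells without a Fa2h count, whose median totals were 7938 and 2803 counts.

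The list of ceramide synthesis and turnover as a whole did not move one way. Of its 31 genes, 26 were tested, and 2 were higher (Elovl4 and Fa2h) and 2 lower (Elovl1 and Asah2), where 2.33% and 3.58% of all genes were called, with a median log2 fold of −0.59 against −1.21 for all genes. Elovl4 makes very long-chain fatty acids. It was at 47929 and 36363 normalised CPM in the control members against 2298 and 1991 in the others, and at 5012 against 1404 in the library labelled Vdr cKO. Its log2 fold was 3.51 (SE 0.39, edgeR, adjusted p = 7.06e-17), it was 2.96 without control 1 (adjusted p = 0.12), and it was −0.58 (adjusted p = 0.28) when a gene was counted once per cell whatever its count. Elovl1, which elongates saturated fatty acids, was at 192, 478 and 140 against 1219, 1491 and 1147 (log2 fold −2.45, edgeR, adjusted p = 8.47e-06), and DESeq2 did not call it (adjusted p = 0.061). With no library block Elovl1 was at −2.25 and did not pass (edgeR, adjusted p = 0.052). Asah2, a ceramidase, had a log2 fold of −3.02 (edgeR, adjusted p = 0.0209), which did not pass with any 1 library left out.

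Among the other ceramide synthases, Cers3, which makes ceramides of the epidermal barrier, had no count in the control members. The other cells stood at 62.7, 80.7 and 45.7 normalised CPM. In the library labelled Vdr cKO the members were at 22.02, and the gene was not called. Cers5 was at 19.3, 30.4 and 23.8 in members against 18.3, 18.8 and 20.3. Cers6 was at 7.57, 0.844 and 89.9 against 24.7, 29.4 and 42.4, and neither was called. Cers1 and Cers2 had no count in any member.

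Fatty acid and cholesterol synthesis was the other lipid pathway with many calls. Of 25 genes tested from a list of 27, 11 were higher and 0 lower, against 2.33% of all genes, with a median log2 fold of 1.38. The count was also 11 higher and 0 lower against the cells with little Krt10. Elovl6, which elongates palmitate, was at 26412, 18570 and 14392 normalised CPM in members against 761, 537 and 675 (log2 fold 4.88, SE 0.41, edgeR, adjusted p = 1.54e-29), and with each gene counted once per cell its log2 fold was 0.45 and did not pass (adjusted p = 0.39). Elovl5, an elongase of polyunsaturated fatty acids, was at 6427, 5317 and 1026 against 143, 90.3 and 59.2. Fasn, the fatty acid synthase, which is also on the sebaceous list, was at 1135, 498 and 728 against 90.3, 43.7 and 69.7. Acly, Acacb, Srebf1 and Insig1 were called as well, with log2 folds of 1.97, 4.64, 3.19 and 3.86; the first pair makes precursors of fatty acids and the second pair regulates lipid synthesis. Of these, Acly did not pass without control 1 (adjusted p = 0.35) or control 2 (adjusted p = 0.15) or under DESeq2 (adjusted p = 0.094), Acacb without control 1 (adjusted p = 0.098), and Srebf1 without control 2 (adjusted p = 0.46) or the library labelled Vdr cKO (adjusted p = 0.064).

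In the cholesterol branch some enzymes were called and others were not. Msmo1, a sterol oxidase of the demethylation steps, was at 3863, 2225 and 1323 normalised CPM in members against 328, 278 and 241 (edgeR, adjusted p = 7.35e-10; 0.090 with each gene counted once per cell). Cyp51, another enzyme of the demethylation steps, had a log2 fold of 2.31 and was called, but not with no library block (edgeR, adjusted p = 0.055). Hmgcs1, Fdft1 and Lss, with log2 folds of 0.85, 0.80 and 0.78, were not called. Scd2, Fads1 and Fads2 of the fatty acid branch had no count in any member.

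By the rule of fold and level, the genes most raised in members were Zfp385b, Gm35986, Papss2, Mageh1, Socs2, 5730409E04Rik, Tmem45b, Cidea, Fa2h, Pparg, Mgll and Hsd3b6. Mgll splits monoglycerides. It was at 6303, 3250 and 2103 normalised CPM in members against 104, 35.1 and 87.0 (log2 fold 5.69, edgeR, adjusted p = 1.34e-28). Hsd3b6, a steroid dehydrogenase, was at 674, 219 and 244 against 14.4, 2.12 and 9.10. Socs2, a suppressor of cytokine signalling, was at 246, 186 and 63.4 against 3.79, 1.14 and 1.54.

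Several of these highest genes rested on few cells. Zfp385b was found in 8, 10 and 4 members, and a single cell held 78.5% of its counts in the members of control 1. Mageh1 was found in 4, 4 and 2 members, and Papss2, which makes the sulfate donor of the cell, in 4, 8 and 2. Neither Mageh1 nor Papss2 passed without control 1 (adjusted p = 0.796 and 0.247) or without control 2 (adjusted p = 0.838 and 0.903). Gm35986 overlaps the start of Elovl6 on the opposite strand in the annotation, and whether counting used strand is not given, so that reads of the pair cannot be told apart.

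Cyp2g1 and Hacd2 stood among the 15 most abundant genes of the control members and were read from that ranking after their values were seen. Cyp2g1, a cytochrome P450, was at 7978, 5800 and 2920 normalised CPM in members against 231, 88.8 and 173. Hacd2, a dehydratase of fatty acid elongation, was at 10320, 6352 and 2848 against 503, 336 and 280. Both were called higher, with log2 folds of 5.07 and 3.98.

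Genes of the differentiated epidermis were low in members. The Krt10 limit of the rule bears on this, since these genes mark the same layers as Krt10. Of 13 tested genes of the list other than Krt10, 12 were lower and 0 higher, against 3.58% of all genes, with a median log2 fold of −3.89. Where the Krt10 limit held on both sides, 10 were lower (background 2.58%) and the median was −4.22. Lor, the main protein of the cornified envelope, was at 1085, 314 and 2228 normalised CPM in members against 15110, 14519 and 11515 (log2 fold −3.89, edgeR, adjusted p = 3.13e-18), and its member sums lay below those of the other cells, as for 26.4% of the genes tested. The cells with little Krt10 of the controls were themselves rich in Lor, at 80799 and 67662 normalised CPM against 11234 in those of the library labelled Vdr cKO. Krtdap, a secreted protein of keratinocyte differentiation, was at 932, 1040 and 3401 against 19366, 31716 and 16327. With each gene counted once per cell neither passed, with log2 folds of −0.74 for Lor (adjusted p = 0.164) and −0.71 for Krtdap (adjusted p = 0.194). Sbsn, another secreted epidermal protein, was at 4434, 3872 and 1964 against 14718, 15713 and 8583, with an edgeR adjusted p of 3.43e-06, and of 0.31 and 0.25 without control 1 or control 2. DESeq2 did not call Sbsn (adjusted p = 0.137).

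The genes lowest in members by the same rule were Adh6a, Ly6m, Gprin2, Ypel2, Sdr9c7, Cited4, Hcar2 and Krt78. When members were chosen with no limit on Krt10, Hcar2 had a log2 fold of −1.34 and did not pass (edgeR, adjusted p = 0.35). Ly6m had no count in the control members and was at 510 and 502 normalised CPM in the other cells. It stood at 39.6 against 208 in the library labelled Vdr cKO. Sdr9c7, an enzyme of the skin lipid barrier, also had no count in the control members, against 148 and 193 in the other cells, and stood at 12.3 against 108.7 in the library labelled Vdr cKO. Krt78, a keratin of differentiated epithelia, was at 0, 5.06 and 20.3 against 640, 685 and 269.

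**Figure D3:**
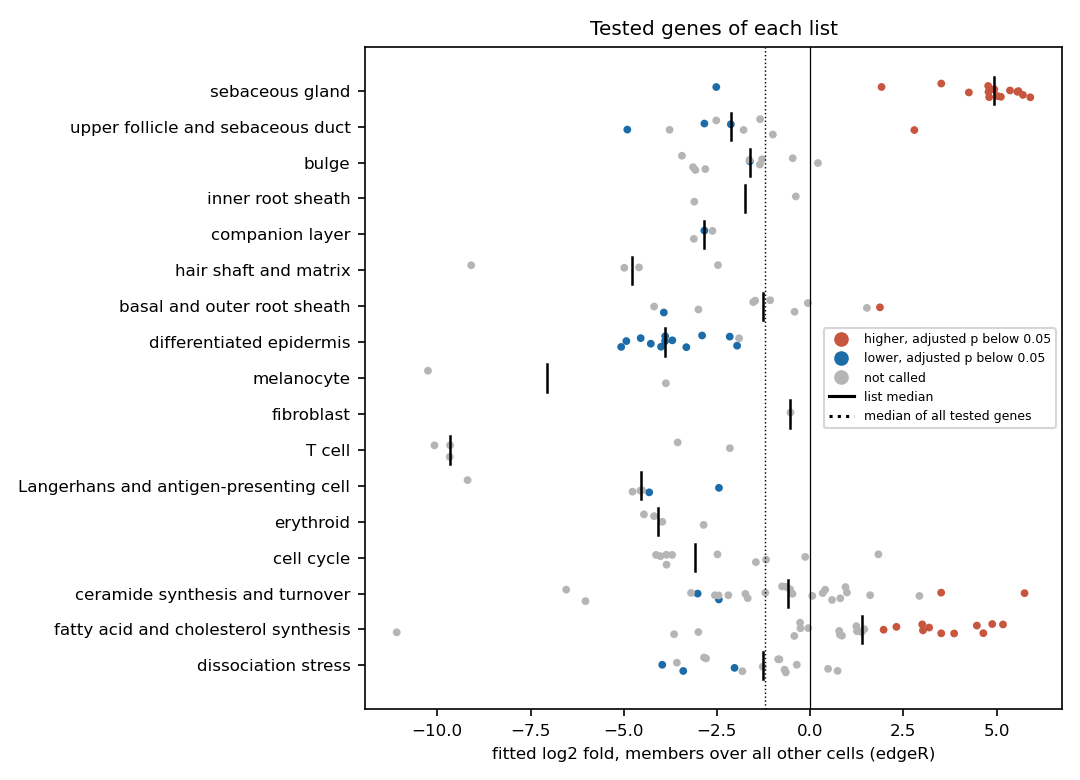
Each point is a tested gene of the list on the y axis, placed by its fitted log2 fold of members over all other kept cells; red points are higher and blue points lower at an adjusted p below 0.05, grey points were not called. The short bars are list medians, 4.93 for the sebaceous gland and −3.89 for the differentiated epidermis, and the dotted line is the median of all genes at −1.21.

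Krt14, the keratin of basal cells, the outer root sheath and the outer cells of the gland, was one of the genes that name these cells. It was at 3206, 2727 and 4218 normalised CPM in members against 752, 560 and 1801 in all other cells (log2 fold 1.87, SE 0.40, edgeR, adjusted p = 0.000123). Without control 1 or control 2 the adjusted p was 0.326 or 0.365. Against the cells with little Krt10, which stood at 2386, 1619 and 3042, the log2 fold was 0.53 (adjusted p = 0.718). DESeq2 did not call it against all other cells (adjusted p = 0.104), and with each gene counted once per cell its log2 fold was 0.0024 (edgeR, adjusted p = 0.999). A count of Krt14 was present in 26, 32 and 76 members, or 78.8%, 76.2% and 83.5%, against 39.4%, 38.7% and 76.3% of the other cells. After thinning to 1000 counts the shares were 60.6%, 58.5% and 69.2% in members against 27.1%, 24.7% and 58.4%.

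The rest of the basal and outer root sheath list did not follow Krt14. Of 10 genes tested, 1 was higher (Krt14) and 1 lower (Trp63), where 2.33% and 3.58% of all genes were called, and the median log2 fold of −1.27 was near the −1.21 of all genes. Krt5, the usual partner keratin of Krt14, was at 299, 109 and 2533 normalised CPM in members against 758, 469 and 2114, and was not called (log2 fold −1.07, adjusted p = 0.185). Against the cells with little Krt10 it was lower, with a log2 fold of −2.46 (edgeR, adjusted p = 0.00729; 0.059 and 0.34 without control 1 or control 2). Trp63, a transcription factor of the basal layer, was at 0, 5.91 and 403 against 141, 151 and 228. It was low in the control members only, and the call (log2 fold −3.93, adjusted p = 0.00348) was lost without control 1 (adjusted p = 0.71) or control 2 (adjusted p = 0.67). Dst, a linker of the cytoskeleton to the basement membrane, was at 61.4, 44.7 and 696 against 329, 172 and 795 and was not called (adjusted p = 0.0744). Against the cells with little Krt10 it was lower, with a log2 fold of −2.84 (edgeR, adjusted p = 0.00364; 0.091 without control 2).

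In the upper follicle and sebaceous duct, Krt79 differed from its neighbours on the list. Krt79 marks cells of the duct and upper follicle canal. It was at 1681, 2886 and 1407 normalised CPM in members against 203, 154 and 694 (log2 fold 2.79, SE 0.47, edgeR, adjusted p = 2.51e-07; 0.13 without control 2). Against the cells with little Krt10 the log2 fold was 1.63 and did not pass (adjusted p = 0.0663). Of the 9 genes tested, 1 was higher (Krt79) and 3 lower (Krt17, Cst6 and Nebl), where 2.33% and 3.58% of all genes were called, with a median log2 fold of −2.13 against −1.21 for all genes. Cst6, a protease inhibitor, was at 209, 360 and 1142 against 1025, 2260 and 3096, and Krt17 at 66.4, 79.3 and 648 against 715, 855 and 2000. The call of Cst6 was lost without control 1 (adjusted p = 0.084) and without control 2 (adjusted p = 0.14) and under DESeq2 (adjusted p = 0.104), and that of Nebl without either control (adjusted p = 0.084 and 0.37). Krt17 did not pass with each gene counted once per cell (adjusted p = 0.057).

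Lists of the bulge and the inner layers of the follicle had few tested genes, and with 2.33% of all genes higher and 3.58% lower, 0 or 1 call in a list of this size is no result about it. Of 10 bulge genes tested, 0 were higher and 1 was lower, Krt15, a keratin of bulge and basal cells, at 994, 233 and 8589 normalised CPM against 3309, 2375 and 7126 (log2 fold −1.62, edgeR, adjusted p = 0.0031). It was low in the control members and not in those of the library labelled Vdr cKO, and without control 1 or control 2 the adjusted p was 0.80 or 0.94. DESeq2 did not call Krt15 (adjusted p = 0.308). Cd34 of the bulge list had no count in any member, and Sox9, a factor of the outer root sheath and bulge, was at 10.9, 98.7 and 264 against 63.9, 22.8 and 172.

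Of 12 inner root sheath genes, 2 passed the filter on low counts and 0 were called, and Tchhl1, Krt25, Krt26, Krt27, Krt28, Krt73 and Padi3 had no count in any member. Gata3, which is also used in other skin layers, was at 458, 507 and 619 normalised CPM against 707, 649 and 701 and was not called. Of 17 hair shaft and matrix genes 4 were tested and 0 called, and 10 had no count in any member, among them Lef1, Msx1 and Msx2. In the companion layer list 3 of 5 genes were tested and 1, Krt17, was lower. At an unadjusted p below 0.05 edgeR had 0 higher genes in the lists of bulge, inner root sheath, companion layer and hair shaft, and DESeq2 called 0 higher in them as well. The summed level was 0 in both control member sums for the hair shaft and matrix list and 49.3 normalised CPM in that of the library labelled Vdr cKO; the other cells stood at 45.0, 36.7 and 133.

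Many defining markers of other cell types had no count in members. The summed fibroblast, endothelial, T cell and simple epithelium lists stood above the other cells in some libraries, and their part in the results was not tested. Among melanocyte genes 7 of 8 had no count in any member, Dct and Pmel included, and the list summed to 0, 0 and 11.5 normalised CPM against 12.8, 11.3 and 56.4 in the other cells, with Mitf the most abundant. Col1a1, Col1a2, Lum and Pdgfra of the 7 fibroblast genes had no count, and the summed list was at 22.7, 0.844 and 93.4 against 15.9, 14.4 and 89.6 in the other cells, with Sparc the most abundant. The T cell markers Cd3g, Trdc, Cd7 and Nkg7 had no count, and that list summed to 0, 45.6 and 9.69 against 46.4, 21.5 and 80.2, with Thy1 the most abundant. Cd207 of Langerhans cells had no count, and of 6 antigen-presenting genes tested 2, Cd74 and Epcam, were lower (background 3.58%). Cd74 did not pass with any 1 library left out (adjusted p from 0.055 to 0.672), and Epcam did not without control 1 (adjusted p = 0.363) or control 2 (adjusted p = 0.329) or under DESeq2 (adjusted p = 0.085). The summed antigen-presenting list was at 20.2, 57.4 and 218 against 428, 530 and 535. Erythroid genes summed to 34.5, 11.8 and 42.3 against 118.8, 521 and 59.4, with Hbb-bs the most abundant. Endothelial and smooth muscle genes summed to 0, 5.91 and 47.6 against 4.76, 1.45 and 0.314, with Kdr the most abundant and Tagln, Myh11 and Des at 0. Of the 6 genes of simple epithelium and sweat gland, Krt7, Krt18, Aqp5 and Acta2 had no count, and the list summed to 0, 0 and 7.05 against 0.244, 4.04 and 4.27.

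Cell cycle genes were tested for 10 of 12. edgeR called 0 in either direction, and 0 also at an unadjusted p below 0.05, and DESeq2 called 0. Top2a was at 2.52, 66.7 and 23.8 normalised CPM in members against 25.9, 39.0 and 85.0, and Mki67 at 5.05, 17.7 and 0.881 against 30.5, 11.8 and 53.0. The cell cycle list summed to 214, 161 and 148 in members against 159, 118 and 327, with Tyms the most abundant. Its sum was thus higher in members of both controls and lower in those of the library labelled Vdr cKO. Of 15 genes induced by cell dissociation 0 were higher, at an unadjusted p below 0.05 too, and 3 lower (background 3.58%), the immediate early genes Fos and Jun and the phosphatase gene Dusp1. Fos was at 4.20, 16.9 and 740 against 487, 402 and 895 (log2 fold −3.97, edgeR, adjusted p = 3.38e-07), and the difference was seen in the control libraries. Fos did not pass without control 1 (adjusted p = 0.068), Dusp1 without control 2 (adjusted p = 0.091), and Jun without control 1 (adjusted p = 0.849), without control 2 (adjusted p = 0.055) or under DESeq2 (adjusted p = 0.25). The summed list was at 2489, 1728 and 4874 normalised CPM in members against 3326, 3073 and 5344.

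Depth differed between members and others in the control libraries, so detection was also read after every cell was thinned to 1000 counts. Of the members of control 1, 81.8% then had a count of Fa2h (95% interval 64.5 to 93.0), against 10.8% of the other cells. In control 2 it was 75.6% (59.7 to 87.6) against 4.31%, and in the library labelled Vdr cKO 42.9% (32.5 to 53.7) against 4.78%. Without thinning the shares of members were 84.8%, 85.7% and 51.6%. Thinned shares for Scd1 were 87.9%, 80.5% and 68.1% in members against 29.8%, 17.3% and 18.8%, and for Pparg 12.1%, 19.5% and 9.89% against 0.419%, 0.129% and 0.364%. Krt5 was found in 15.2%, 7.32% and 57.1% of members, against 26.9%, 21.1% and 64.8% of the other cells. Median totals behind the unthinned shares are those given above, and 1 member of control 2 and 14, 60 and 60 other cells with fewer than 1000 counts were left out.

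**Figure D4:**
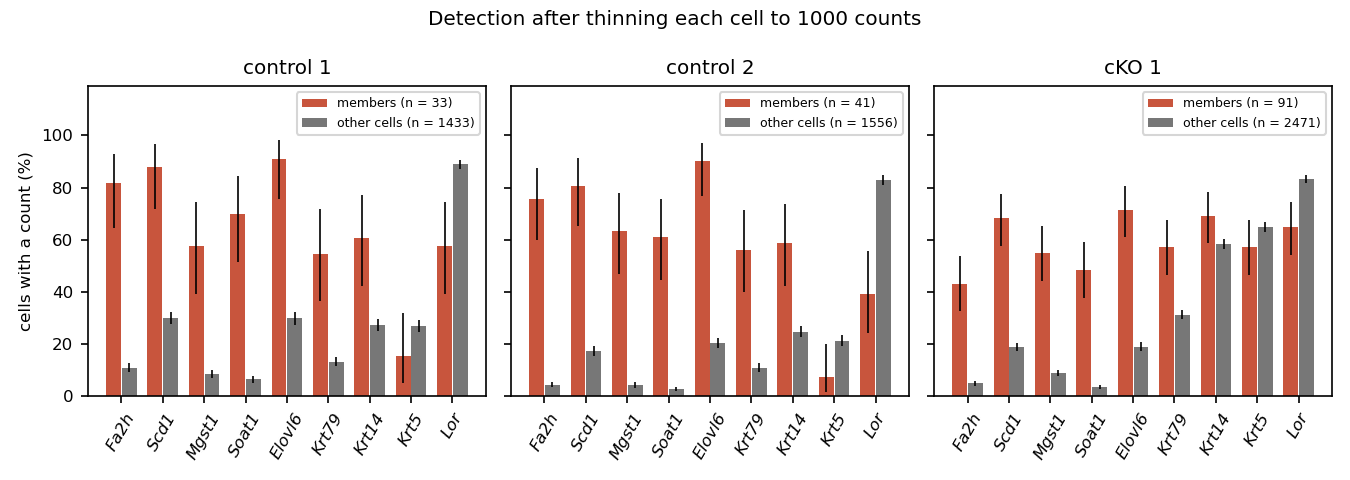
Bars give the share of cells with at least 1 count of the gene after thinning to 1000 counts, for members (red) and other kept cells (grey) of each library; lines are 95% Clopper-Pearson intervals over cells. The bars for Fa2h stand at 81.8%, 75.6% and 42.9% in members and between 4.31% and 10.8% in the other cells.

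Counted by cell, most members carried several genes of the sebaceous list after thinning to 1000 counts. At 1000 counts, the median member had 7 of the 17 genes in control 1, 6 in control 2 and 4 in the library labelled Vdr cKO, and the median other cell had 1 in each library. At least 3 genes were found in 84.8%, 85.4% and 64.8% of members. The 95% intervals were 68.1 to 94.9, 70.8 to 94.4 and 54.1 to 74.6. Among other cells the shares were 10.9%, 4.88% and 5.54%. Krt10-high cells had 11.2%, 4.72% and 6.23%, and they include the 85, 36 and 74 cells that passed the Cers4 limit, so that they are not a class free of gland genes. No gene of the list was detected at that depth in 1, 3 and 18 members.

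**Figure D5:**
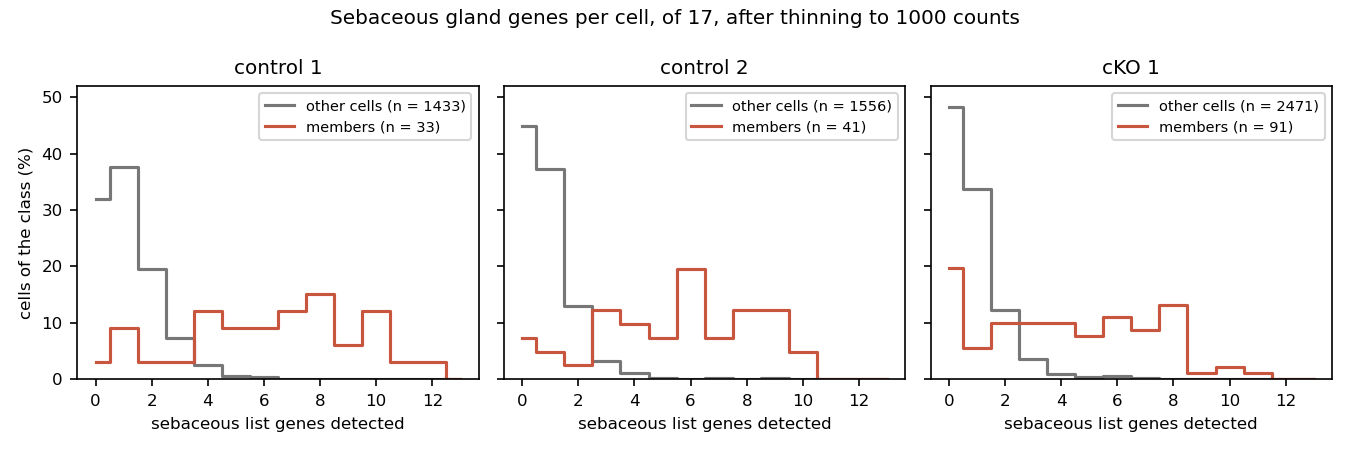
For each library, the x axis gives how many of the 17 sebaceous list genes had a count in a cell thinned to 1000 counts, and the y axis the percent of members (red) or other kept cells (grey). Other cells pile up at 0 and 1, and members spread over the range with medians of 7, 6 and 4.

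Within the library labelled Vdr cKO, members with and without a Fa2h count differed in other genes, and their depth differed too. In CPM of the summed cells, Scd1 was at 8666 in the 47 members with a Fa2h count and at 2934 in the 44 without, and Elovl6 at 17283 and 4082. Lor was at 1912 and 4880, and Krt14 at 4832 and 2492, while Krt15 was at 9353 and 7783. In the controls the members with a Fa2h count, 28 and 36 cells, had Krt15 at 918 and 245 and Lor at 919 and 265. The 5 and 6 control members without a Fa2h count, with median totals of 3400 and 1561 counts, had Krt15 at 2994 and 170 and Lor at 8714 and 1739. The other cells with little Krt10 had Krt15 at 4603, 3746 and 12312. A choice by Fa2h of at least 1000 CPM in place of Cers4, with the same Krt10 limit, gave 36, 40 and 65 cells, and 23, 31 and 40 of them were members. Those chosen by Fa2h had Cers4 at 3936, 4175 and 3378 CPM and Scd1 at 19193, 14499 and 8498, and these cells were chosen by a measured gene, so that the values are a description.

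Cells with high Cers4 and Krt10 of at least 10000 CPM were lower in Scd1 and Fa2h than the members in the control libraries, and this was not tested. Their summed Scd1 was at 2324, 1443 and 5722 CPM and their Fa2h at 410, 313 and 1749. Members of control 1 and control 2 stood at 20138 and 13247 normalised CPM for Scd1 and at 6965 and 4554 for Fa2h. Normalised CPM carries TMM scaling, and the CPM of the Krt10-high cells does not. In the library labelled Vdr cKO the gap was smaller, with members at 7344 normalised CPM for Scd1. There the Krt10-high cells lay between members with and without a Fa2h count, which had Scd1 at 8666 and 2934 CPM and Fa2h at 3283 and 0. Among the compartments listed, the sebaceous gland was the one with most of its tested genes higher in the members.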

How the data were processed

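Trypsin-released cells of P18 back skin were profiled by the authors with the Nadia droplet system and the RNAdia 2.0 kit, as 2 libraries of controls and 1 of Vdr cKO mice. The authors deposited raw counts per gene and barcode, with no normalization; the labels name mm10, and the paper names Seurat v4. The aligner, annotation and rule for counting molecules are not given in the sources used here, so counts may include PCR copies. Kept cells held 18802408, 28690129 and 30954897 counts. Of 19927 gene symbols, 97.6% were found in GENCODE M21 and took their positions from it.

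The members, gene lists and tests were chosen with earlier results of these data known. Counts were summed per library and class and tested with edgeR 4.0.16 (R 4.3.3): TMM, filterByExpr, library as block, quasi-likelihood F-test. Each group is 1 sum per library, 6 sums in all. With library as block, p-values rest on how the difference between members and other cells varies between 3 libraries, of which 1 is cKO. Cers4 and Krt10 were left out of the tests. Genes named in the text were Cers4, Krt10, Fa2h, Krt14, Vdr, Dst, Gata3 and Lor, the 12 highest and 8 lowest called genes with a mean of at least 50 normalised CPM and 1 direction in every library, up to 4 genes of each of 19 lists by member level, and the called ceramide genes; further list genes are named as examples. Some genes are counted in their lists and not reported here by name. On simulated data of the first comparison, 57 of 66 genes changed 64-fold, 38 of 67 changed 16-fold and 10 of 67 changed 4-fold were called, all in the right direction, and 2 of 9570 unchanged genes were called. For the second comparison the same counts were 47 of 59, 30 of 58 and 4 of 67, and 6 of 5295 unchanged genes were called. The alternatives included DESeq2 1.42.0.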

Additional observations from a re-analysis of the deposited data

Results flagged for a closer look

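Of 79 tested genes named by the rule, 9 (11.4%) had a ratio of members to other cells below 1 in both control libraries and above 1 in the library labelled Vdr cKO. The same pattern was seen for 1863 of the 10846 genes tested (17.2%). The ratios are log2 of normalised CPM plus 1, and the difference between libraries was not tested. Krt15 had 0.27 in that library against −1.73 and −3.34 in the controls, Krt5 0.26 against −1.34 and −2.10, and Trp63 0.82 against −7.15 and −4.46. Vdr had 0.40 against −5.58 and −2.25. Krt6a and Krt16, keratins of the companion layer and of stressed epidermis, had 1.36 and 0.91, against −3.20 and −4.53 for Krt6a and −3.94 and −3.85 for Krt16. Hoxc13, a factor of the hair matrix, had 0.89 against −0.98 and −3.10, and Postn, an extracellular matrix gene of the bulge list, 0.20 against −3.39 and −2.20. Hbb-bs, a globin of red cells, had 2.59 against −3.12 and −5.96. Cers6, which the rule did not name, had 1.07 against −1.58 and −4.04. Summed over whole lists, members of that library stood below its other cells for the erythroid, hair shaft and companion layer lists. The values were 42.3 against 59.4, 49.3 against 133 and 1364 against 2245 normalised CPM. Members stood above for the bulge, basal and ceramide lists, at 9122 against 7651, 8590 against 5707 and 13801 against 5147. The member sum held 1062343 counts of tested genes, so the lowest of these values rest on few counts. Members of the library labelled Vdr cKO also had a median total of 3917 counts, against 16965 and 12939 in the controls, and rested on fewer than 5 Cers4 counts in 14 of 91 cells; the part of these values in the difference was not tested.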

How the results depend on the processing

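Counts of called genes moved with the tool and the libraries. Against all other cells, DESeq2 called 1141 genes lower, the fit with no replicate block 116 lower, and counting a gene once per cell gave 415 higher. With 1 library left out the counts ran from 134 to 253 higher and from 153 to 362 lower, the lowest without control 2 (145 and 220 without control 1). Against the cells with little Krt10, DESeq2 called 346 higher and 630 lower, no replicate block 90 and 112, once per cell 288 and 348, and limits of 300 genes and 5% mitochondrial counts 103 and 125, and leaving out a library gave 87 to 197 higher and 64 to 331 lower. The cause was not tested. The library is the block of the edgeR test and so pairs both kinds of sum within a library. Leaving out the replicate block ended, among others, the calls of Dgat2 (adjusted p = 0.076), Cyp51 (0.055), Hcar2 (0.076), Ly6m (0.077) and Sdr9c7 (0.076). The largest moves of that edgeR fit included Trp63 at a log2 fold of −0.35 (adjusted p = 0.94) and Krt15 at −0.38 (0.90). Jun was at −0.54 (0.90) and Fos at −1.23 (0.72). Elovl4 turned to −0.58 against all other cells and −0.46 against those with little Krt10 when counted once per cell. In the first comparison that count also ended the calls of Scd1 (log2 fold 0.42), Elovl6 (0.45), Msmo1 (0.65), Lor (−0.74), Krtdap (−0.71), Krt79 (0.69), Hacd2 (0.69), Sbsn (−0.70), Cst6 (−0.68), Krt17 (−0.83), Krt15 (−0.84), Trp63 (−0.82), Cd74 (−0.67) and Jun (−0.54), and Krt14 was at 0.0024, close to no difference. With other Cers4 or Krt10 limits the share of members was 7.97% and 4.70% in control 1 and control 2 without the Krt10 limit and 6.29% in the library labelled Vdr cKO, where Cers4 limits of 500 and 2000 CPM gave 4.58% and 2.75%. Thinning to 500 counts gave Fa2h in 57.1% of members of control 2 and Krt14 in 57.1% of those of the library labelled Vdr cKO. At 2000 counts Fa2h and Scd1 were in 89.2% and 91.9% of members of control 2, Scd1 and Krt14 in 79.2% and 84.4% of those of the library labelled Vdr cKO, and Krt14 in 78.1% of those of control 1. The second comparison without the Krt10 limit was not run, since it holds the same cells as the first.

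Of the sebaceous list, 13 to 15 of the tested genes were higher under each of 16 alternatives of the first comparison and 9 to 14 under each of 15 of the second. Of 43 named genes called in the first comparison, 20 kept direction and side of the threshold under all alternatives, and of 38 in the second, 18 did. Leaving out the filter on low counts moved the median log2 fold of all genes by −0.84, no replicate block by 0.87 and once per cell by 1.05. Higher and lower calls of the first comparison, 253 and 388, were 177 and 116 with no replicate block, 333 and 1141 with DESeq2 and 348 and 289 without the Krt10 limit, and those of the second, 155 and 191, were 87 and 64 without control 2. With cells of 2000 or more counts alone, they were 252 and 395 in the first comparison and 136 and 163 in the second.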
